A study of Mus musculus with 12 samples.

Results

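Shmt1, Shmt2, Mthfd1, Mthfd2, Mthfd1l, Mthfd2l, Aldh1l1, Aldh1l2 and Ftcd, the 9 enzymes that load one-carbon units onto tetrahydrofolate and interconvert or remove them, were examined in the livers of mice with and without a hepatocyte deletion of Phgdh, the first enzyme of serine synthesis. They were picked by function, as enzymes of the folate one-carbon pool that serine feeds, and their probes were found through the RefSeq accession that the array gives for each probe. This gave 11 probes for 9 genes, among 39429 probes on the array. A total of 7 of the 9 genes had a probe well above background on every array and belonged to the 16916 genes tested together. Mthfd1l and Aldh1l2 did not, and their values are given on all arrays from a fit of 32524 genes without that filter.

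Serine gives its side-chain carbon to tetrahydrofolate in a reaction that also releases glycine. Serine hydroxymethyltransferase carries it out in the cytosol (Shmt1) and in the mitochondria (Shmt2), and a parallel set of enzymes in each compartment oxidizes the carbon to formyl-tetrahydrofolate or formate, which crosses between them. The liver is a major site of folate metabolism, where the carbon feeds purine, thymidylate and methionine synthesis, and where breakdown of histidine is a further source of it.

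Both genotypes were male C57BL/6 mice of 30 weeks, kept on chow with 20% casein, with 1 mouse per array and 6 mice per genotype. Floxed mice carried 2 conditional alleles (Phgdh flox/flox) and no Cre. LKO mice were their littermates with the same 2 floxed alleles and Cre driven by the albumin promoter (Alb+/Cre;Phgdh flox/flox), which acts in hepatocytes, so that other cells of the liver still carry Phgdh. The 12 arrays lay on 3 slides, with Floxed mice 1 to 4 on slide 1, Floxed mice 5 and 6 and LKO mice 1 and 2 on slide 2, and LKO mice 3 to 6 on slide 3.

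Values are log2 intensities after quantile normalization over the 12 arrays, differences are LKO minus Floxed on that scale, and the call rested on an unadjusted limma p below 0.05. Between 21614 and 24252 probes per array were well above background, and no spot was saturated. Of all genes tested, 8.35% (1413 of 16916) were called and 0 had an adjusted p (Benjamini-Hochberg) below that limit. In 0.296% (50 genes) the values of the genotypes did not overlap. Whole liver RNA was hybridized, so fewer cells of a type cannot be told apart from less RNA per cell. All 8 hepatocyte markers (Alb, Ttr, Apoa1, Apoa2, Tat, Cps1, Cyp2e1 and Hnf4a) were well above background on every array and none was called, although Apoa2 had the same value on all 12 arrays after quantile normalization and could not have been called.

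Phgdh itself (RefSeq NM_016966) was used to check the labels. Its log2 intensity was 4.81 at the lowest, 5.17 at the median and 5.496 at the highest among Floxed mice, and 4.23, 4.57 and 5.30 among LKO mice. LKO mice 3 to 6 lay below every Floxed mouse, whereas the libraries labelled LKO 1 (5.07) and LKO 2 (5.30) lay inside the Floxed range. The log2 difference was -0.48 (standard error 0.18), with an unadjusted limma p of 0.0179 and an adjusted p of 0.451. Without LKO 1 and LKO 2 it was -0.72, which is given with no test, since these libraries were left out for their Phgdh values. Within slide 2, which holds LKO 1 and LKO 2, the difference was -0.055. A second Phgdh probe rose above background on few arrays (1 Floxed, 3 LKO) and differed by 0.30. With normexp background correction the first probe differed by -0.19. The deletion removes only some exons of Phgdh, and the position of the probes relative to them was not examined. The study detected the deleted allele by PCR in the liver of LKO mice. It also reported Phgdh mRNA and protein there as reduced but not abolished. The values of the enzymes below are also given within slide 2 and without LKO 1 and LKO 2. Without these 2 libraries no slide holds both genotypes, so slide and genotype cannot be told apart in those values.

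Among the folate enzymes 1 of the 7 tested genes was called, against 8.35% of all genes tested. Mthfd2, the mitochondrial dehydrogenase and cyclohydrolase, was lower in LKO mice at the unadjusted threshold, whereas all 4 cytosolic enzymes had small positive differences that did not pass it. The remaining mitochondrial enzymes differed by between 0.0033 and 0.15. The median difference over the 7 tested enzymes was 0.053, beside -0.0035 over all genes tested, and none of them passed the adjusted threshold.

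**Figure D1:**
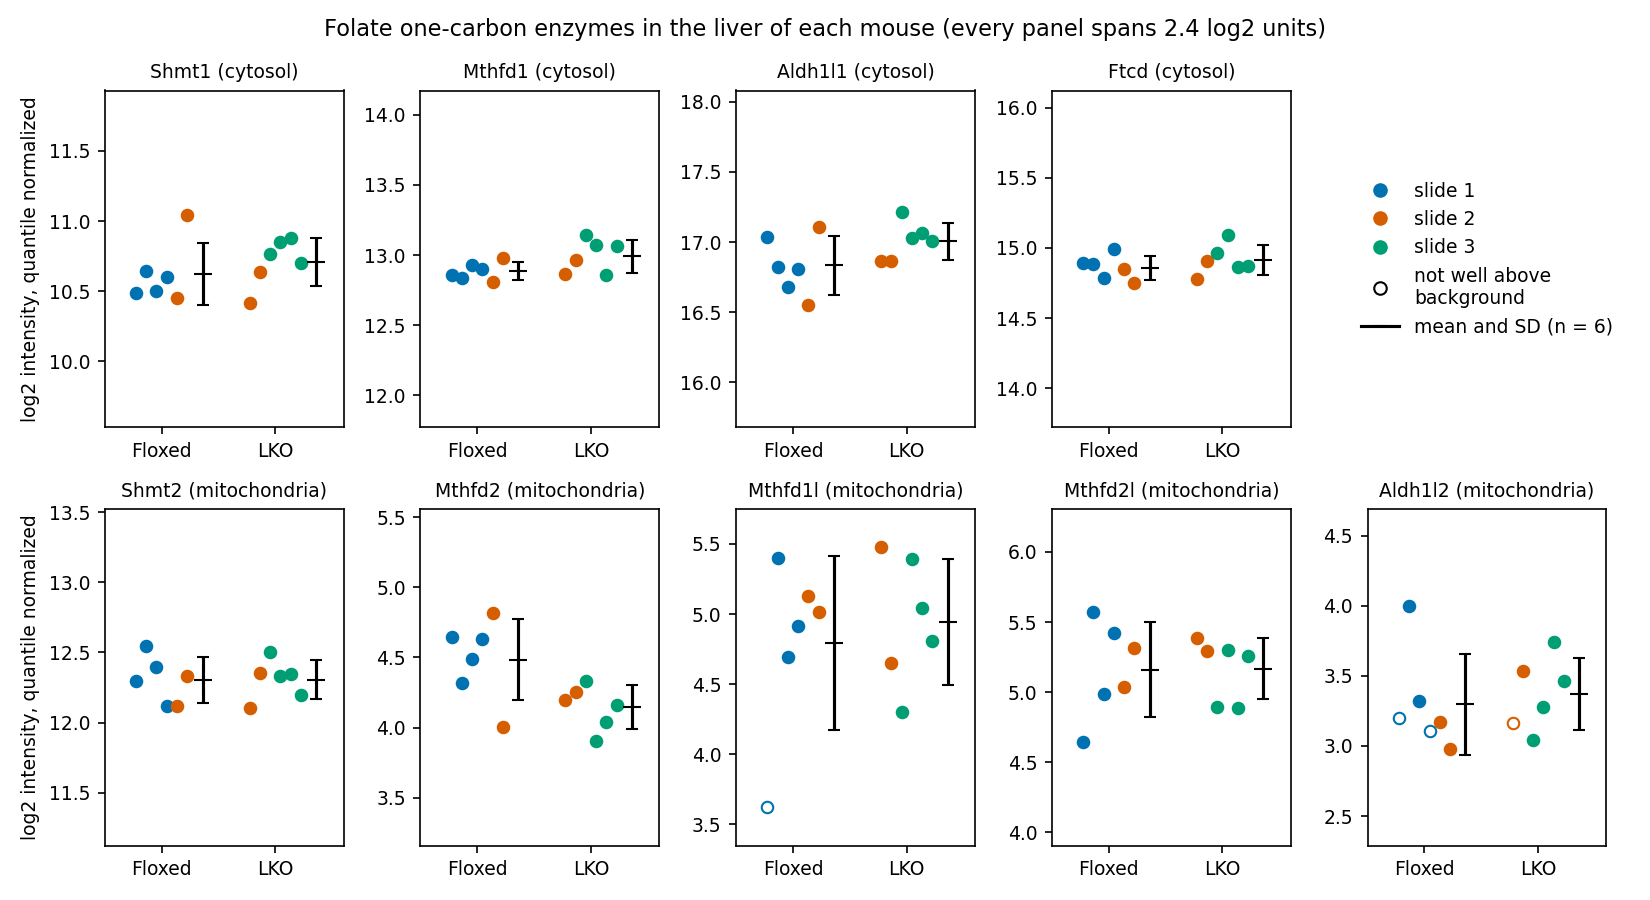
Log2 intensity after quantile normalization (vertical axis) of the 9 folate enzymes in each mouse, with Floxed and LKO mice side by side and points colored by slide. Bars give the mean and SD of 6 mice, open points are arrays on which the probe was not well above background, and every panel spans the same number of log2 units. Mthfd2 is the panel in which all 6 LKO mice lie below the Floxed median of 4.56, and in every panel the genotypes overlap.

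Shmt1 and Shmt2 take the carbon from serine. Shmt1 (NM_009171), the cytosolic form, had log2 intensities of 10.45 at the lowest, 10.55 at the median and 11.05 at the highest in Floxed mice and of 10.42, 10.73 and 10.88 in LKO mice. The groups overlapped, with Floxed mouse 6 above all other mice and LKO mouse 1 below them, and 5 of 6 LKO mice were above the Floxed median. The log2 difference was 0.085 (standard error 0.11, 95% interval -0.16 to 0.33; limma adjusted p = 0.954). Within slide 2 it was -0.22, the opposite sign, and a dimmer probe of the same transcript gave -0.035, also not called. Without LKO 1 and LKO 2 the difference was 0.18 and again not called.

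Shmt2 (NM_028230), the mitochondrial form, lay at 12.12, 12.32 and 12.54 (lowest, median and highest) in Floxed mice and at 12.10, 12.34 and 12.50 in LKO mice. The 2 ranges nearly coincided. Between the genotypes Shmt2 differed by 0.0033 (standard error 0.094, 95% interval -0.20 to 0.21; limma adjusted p = 0.998), an interval of 0.871-fold to 1.15-fold. The difference was 0.0022 within slide 2 and 0.043 without LKO 1 and LKO 2.

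Downstream of these, Mthfd1 is the cytosolic enzyme with dehydrogenase, cyclohydrolase and formate-tetrahydrofolate ligase activity, and in the mitochondria the same steps are divided between Mthfd2, Mthfd2l and Mthfd1l. Mthfd1 (NM_138745) had values of 12.80, 12.88 and 12.98 in Floxed mice and of 12.86, 13.01 and 13.14 in LKO mice. It was the member with the least spread among Floxed mice (SD 0.063, n = 6). The LKO mice with the highest values, mice 3, 4 and 6, lay above all Floxed mice and the other 3 lay within their range. The log2 difference was 0.11 (standard error 0.072, 95% interval -0.046 to 0.26; limma adjusted p = 0.806), with a two-sided exact permutation p of 0.0801. It was 0.023 within slide 2 and 0.15 without LKO 1 and LKO 2, not called in the latter.

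Mthfd2 (NM_008638) oxidizes methylene-tetrahydrofolate in mitochondria and is known for high expression in embryos and tumors and low expression in most adult tissue. Its log2 intensity was 4.003 at the lowest, 4.56 at the median and 4.81 at the highest in Floxed mice, and 3.90, 4.18 and 4.33 in LKO mice. All 6 LKO mice were below the Floxed median, and the groups overlapped through Floxed mice 2 and 6, the second of which (4.003) was below 5 of 6 LKO mice. The log2 difference was -0.34 (standard error 0.13, 95% interval -0.62 to -0.058), a fold of 0.792. The unadjusted limma p was 0.0215, the adjusted p was 0.483 and the two-sided exact permutation p was 0.0368. The log2 difference was -0.38 without LKO 1 and LKO 2 and -0.18 within slide 2. Without LKO 1 and LKO 2 Mthfd2 was called, but no slide held both genotypes. In that run 2172 of the 16916 tested genes were called, against 1413 with all arrays.

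The Mthfd2 probe was dim, at percentile 2.06 of the mean intensities of the tested genes, although well above background on all 12 arrays. Among the dimmest 10% of the tested genes (1691 genes), 20.7% were called, 9.34% lower and 11.4% higher in LKO mice, against 8.35% of all genes. When arrays were scaled to the 75th percentile without quantile normalization, Mthfd2 differed by -0.18 and was not called (8.53% of all genes were), and the median of these dimmest genes moved from -0.064 to 0.080. With normexp background correction it differed by -0.13 and was not called (8.38% of all genes were). With slide as a fixed block, which compares the genotypes within slide 2, it was not called either (1.87% of all genes were). The part of this intensity range in the difference of Mthfd2 was not tested. The call was also lost without Floxed mouse 5, the highest of the Floxed mice (log2 difference -0.27), and without LKO mouse 4, the lowest of all mice (-0.29).

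Mthfd2 and its mitochondrial paralogue Mthfd2l carry out the same reactions. The 250 bases before each transcription start (RefSeq, GRCm38.p6) are shown because Mthfd2 was the called member and Mthfd2l is its closest counterpart. They lie at chr6:83317605-83317854 on the minus strand for Mthfd2 and at chr5:90930946-90931195 on the plus strand for Mthfd2l, and capitals mark CCAAT on either strand.
Mthfd2: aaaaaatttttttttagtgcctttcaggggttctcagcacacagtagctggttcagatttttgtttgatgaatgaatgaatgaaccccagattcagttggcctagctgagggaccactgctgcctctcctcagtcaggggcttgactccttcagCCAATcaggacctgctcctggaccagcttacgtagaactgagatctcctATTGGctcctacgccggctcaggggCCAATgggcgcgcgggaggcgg
Mthfd2l: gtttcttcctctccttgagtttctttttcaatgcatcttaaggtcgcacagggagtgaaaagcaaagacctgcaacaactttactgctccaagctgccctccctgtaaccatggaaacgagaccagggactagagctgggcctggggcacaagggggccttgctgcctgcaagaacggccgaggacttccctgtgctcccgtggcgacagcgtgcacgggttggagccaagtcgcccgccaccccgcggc

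Promoter windows of 300 bases, from 250 before to 50 after the start, were at hand for 8 of the 9 enzymes, all but Aldh1l2. TGATGNAA, the amino acid response element bound by Atf4, was searched on both strands and was in 0 of the 8 windows and in 3.97% of 32851 promoters. CACGTG, an E-box, was in 0 of the 8 and in 7.15% of all promoters. CCAAT, searched after the Mthfd2 sequence had been seen, was found 3 times in Mthfd2, 2 times in Aldh1l1 and 1 time each in Shmt1 and Mthfd1. It was not in the windows of Shmt2, Mthfd1l, Mthfd2l and Ftcd, and 37.4% of all promoters held it. No match overlapped a match of another motif. These are matches of letters in the windows only.

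Mthfd2l (NM_026788), the paralogue of Mthfd2 that adult tissues express more widely, had values of 4.64, 5.17 and 5.57 in Floxed mice and of 4.89, 5.27 and 5.38 in LKO mice. The LKO range lay entirely inside the Floxed range. Mthfd2l differed by 0.0074 (standard error 0.15, 95% interval -0.33 to 0.34; limma adjusted p = 0.997). It was 0.17 within slide 2 and -0.078 without LKO 1 and LKO 2, so that no direction can be given.

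Mthfd1l (NM_172308), the mitochondrial formate-tetrahydrofolate ligase that releases formate, was well above background on 5 of 6 Floxed and 6 of 6 LKO arrays. Its values were 3.62, 4.96 and 5.40 in Floxed mice and 4.30, 4.93 and 5.48 in LKO mice. Floxed mouse 1, the array not well above background, was the lowest, and the rest overlapped. In the fit without a filter the log2 difference was 0.15 (standard error 0.30, 95% interval -0.50 to 0.80; limma adjusted p = 0.892), and it was -0.0066 within slide 2 and 0.092 without LKO 1 and LKO 2 (not tested). The probe of a further transcript (NM_001170786) reached that mark on 1 Floxed and 2 LKO arrays and differed by -0.20, not called.

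Aldh1l1 and Aldh1l2 remove the one-carbon unit by oxidizing formyl-tetrahydrofolate to carbon dioxide, in the cytosol and in the mitochondria. Aldh1l1 (NM_027406), an abundant liver protein, had values of 16.55, 16.82 and 17.11 in Floxed mice and of 16.86, 17.02 and 17.21 in LKO mice. All 6 LKO mice were above the Floxed median, but Floxed mouse 6 exceeded 5 of them. Aldh1l1 differed by 0.17 (standard error 0.10, 95% interval -0.051 to 0.40; limma adjusted p = 0.754), the largest positive difference among the 9 enzymes. It was called without Floxed mouse 6 (0.23) and in no other run that left out 1 array. The difference was 0.037 within slide 2 and 0.24 without LKO 1 and LKO 2, not called in the latter.

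Aldh1l2 (NM_153543), the mitochondrial form, was well above background on 4 of 6 Floxed and 5 of 6 LKO arrays. Its values were 2.98, 3.18 and 3.998 in Floxed mice and 3.04, 3.37 and 3.74 in LKO mice, and Floxed mouse 2 was above all others. In the fit without a filter the log2 difference was 0.075 (standard error 0.17, 95% interval -0.31 to 0.46; limma adjusted p = 0.909), and it was 0.27 within slide 2 and 0.086 without LKO 1 and LKO 2 (not tested).

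Ftcd, the cytosolic enzyme that passes the formimino carbon of histidine to tetrahydrofolate, is the member whose carbon does not come from serine. Its probe (NM_080845) gave 14.75, 14.87 and 14.99 in Floxed mice and 14.78, 14.89 and 15.09 in LKO mice. Only LKO mouse 4 lay above the Floxed range. Ftcd differed by 0.053 (standard error 0.072, 95% interval -0.10 to 0.21; limma adjusted p = 0.954), with 0.042 within slide 2 and 0.088 without LKO 1 and LKO 2.

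**Figure D2:**
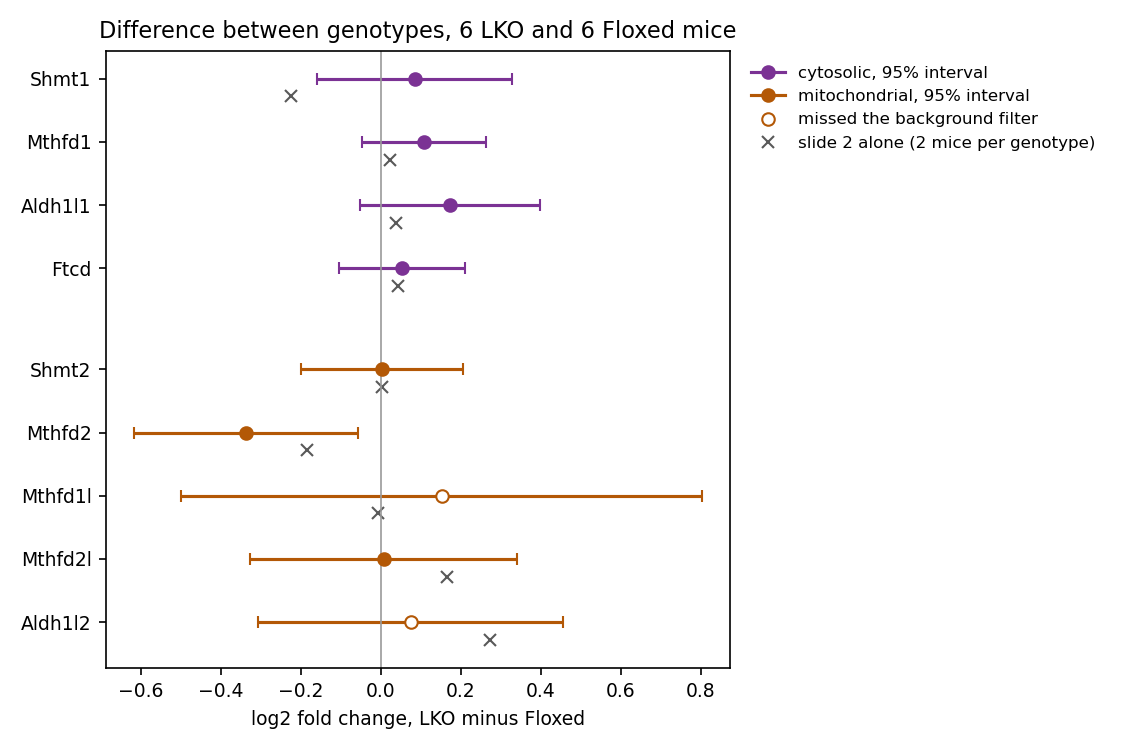
Log2 fold change, LKO minus Floxed (horizontal axis), of the 4 cytosolic and the 5 mitochondrial enzymes, with 95% intervals from limma over 6 mice per genotype. Open circles are enzymes whose probe missed the background filter, and crosses give the difference within slide 2 alone, with 2 mice per genotype. The interval of Mthfd2 (-0.62 to -0.058) is the only one that does not include 0.

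The cytosolic and the mitochondrial enzymes were then compared. Of the 4 cytosolic enzymes, 4 had a positive difference and 0 were called, with a median log2 difference of 0.097. Of the 5 mitochondrial enzymes, 4 had a positive difference, 1 was negative and called, and the median was 0.0074. The compartments also differed in probe intensity. Mean log2 intensities in Floxed mice were 10.62 to 16.83 for the cytosolic enzymes and 12.30 for Shmt2. They were only 3.30 to 5.16 for Mthfd2, Mthfd1l, Mthfd2l and Aldh1l2. Apart from Shmt2, compartment and intensity cannot be told apart in this comparison. In the fit of 32524 genes without a filter, which holds all 9 enzymes, the median was -0.0043 and 8.58% were called. The difference between the cytosolic and the mitochondrial median was 0.089. A related but different measure was taken on each array from the deviations of the enzymes from their means over the 12 arrays. The cytosolic minus the mitochondrial median deviation ran from -0.46 to 0.096 in Floxed and from -0.050 to 0.42 in LKO mice (SD within genotypes 0.19). No test was run on either measure. When arrays were scaled to the 75th percentile, the difference of the compartment medians was -0.030, the opposite sign. It was 0.028 within slide 2 and 0.12 without LKO 1 and LKO 2. With each array left out in turn it ran from 0.0054 (without Floxed mouse 2) to 0.16 (without Floxed mouse 1), and without LKO mouse 3 it was 0.014.

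The difference between the genotypes was further compared within the 3 pairs of cytosolic and mitochondrial counterparts, by exact permutation tests (two-sided, over all arrangements of the genotypes) on the difference of the log2 intensities of each pair on each array. Shmt1 changed by 0.081 more than Shmt2 (standard error 0.11, exact 95% interval -0.17 to 0.31, exact p = 0.491), within slide 2 by -0.23 and without LKO 1 and LKO 2 by 0.13. Mthfd1 against Mthfd1l gave -0.043 (standard error 0.33, interval -0.78 to 0.69, exact p = 0.898), within slide 2 0.029 and without LKO 1 and LKO 2 0.056. Aldh1l1 against Aldh1l2 gave 0.099 (standard error 0.23, interval -0.39 to 0.62, exact p = 0.686), within slide 2 -0.24 and without LKO 1 and LKO 2 0.16. All 3 pairs had a p of 0.898 after Benjamini-Hochberg adjustment, and each turned its sign within slide 2. The interval was narrowest for Shmt1 and Shmt2, and those of the other pairs, in which Mthfd1l and Aldh1l2 were not well above background on all arrays, left room for larger differences of either sign.

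**Figure D3:**
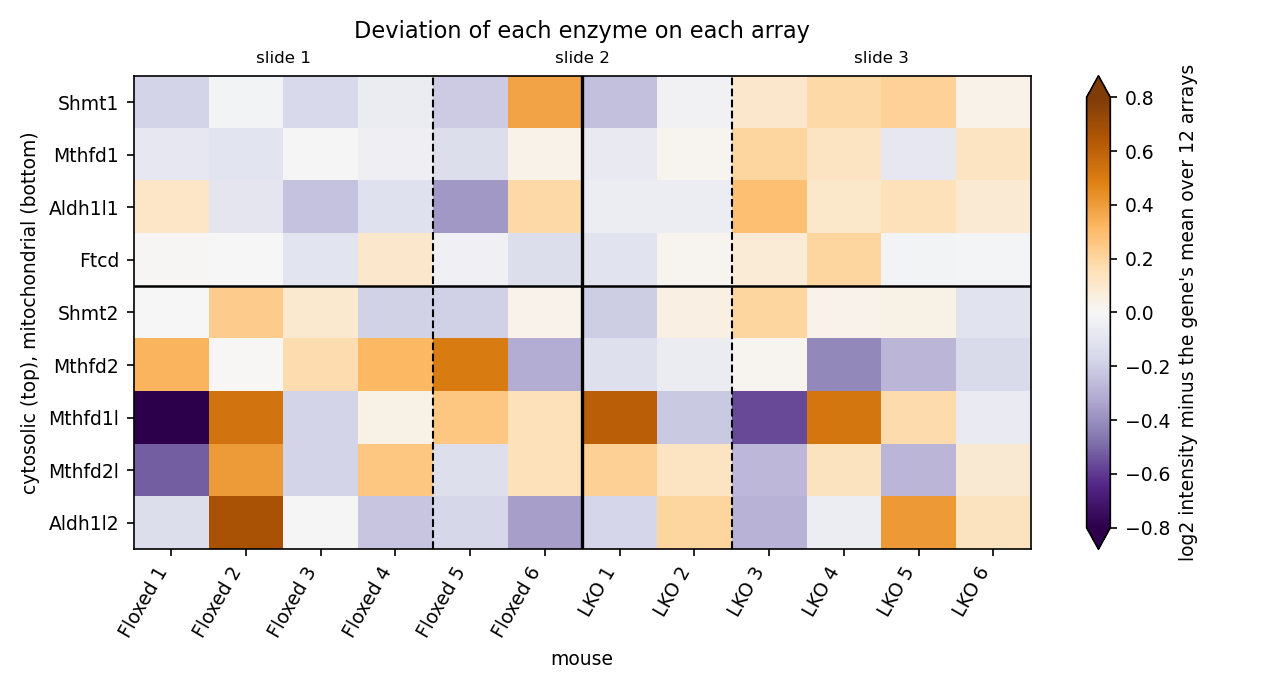
Deviation of each enzyme (rows, cytosolic above the horizontal line and mitochondrial below it) on each array (columns, by mouse and slide) from the mean of that enzyme over the 12 arrays, in log2 units. In the Mthfd2 row 5 of 6 Floxed mice are at or above the mean and Floxed mouse 6 is below it, and the cytosolic rows are mostly positive on slide 3, where all mice are LKO.

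The cytosolic enzymes were highest on slide 3. On the arrays of LKO mice 3 to 6 the median deviation of the 4 cytosolic enzymes from their means over 12 arrays was between 0.060 and 0.16, and on those of LKO mice 1 and 2 it was -0.091 and -0.0028. Among Floxed mice it was between -0.17 and -0.038 in mice 1 to 5 and 0.11 in mouse 6. Slide 3 held LKO mice alone, so slide and genotype cannot be told apart there.

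Over the 12 arrays, Shmt1 and Aldh1l1 varied together (Pearson r = 0.685, Spearman rho = 0.683), and so did Mthfd1l and Mthfd2l (r = 0.747, rho = 0.622), which gave the highest r of the 36 pairs of members. Shmt1 and Mthfd2 gave the lowest (r = -0.734). These values are descriptions over 12 arrays that share slides and genotypes. Shmt1 and Shmt2 were less alike (r = 0.401). Among 16894 other tested genes, the pattern of Shmt1 was most like that of Cyb5r3, the NADH-cytochrome b5 reductase (r = 0.921), then that of a probe for NM_001039720 (r = 0.905) and probe A_55_P2001068 (r = 0.880), which were not matched to a symbol. That of Shmt2 was most like Pik3r2 (r = 0.937), Cadm3 (r = 0.932) and Eri3 (r = 0.928). Aldh1l1 stood at rank 244 for Shmt1 and Mthfd2 at rank 16788.

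A list of 40 other genes placed the enzymes in their pathway, and 39 of them were tested. The list was drawn up for folate and serine metabolism but also held Slc25a28, a mitochondrial iron carrier (0.071, not called). Of the 39 tested genes, 2 were called higher and 1 lower, against 4.92% and 3.43% of all genes tested, with a median log2 difference of 0.019. The lower gene was Phgdh, and the higher genes were Fpgs and Sfxn1. The number of higher calls was close to the share over all genes, and the lower call was the gene that had been deleted.

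Fpgs (NM_010236), which adds the glutamate tail that keeps folates inside the cell, had log2 intensities of 12.54, 12.66 and 13.01 (lowest, median and highest) in Floxed mice and of 12.72, 13.00 and 13.57 in LKO mice. All 6 LKO mice were above the Floxed median, led by mice 5 and 2, and the groups overlapped. Fpgs differed by 0.35 (standard error 0.15; limma adjusted p = 0.531), and its unadjusted limma p was 0.0314. The difference was 0.57 within slide 2 and 0.30 without LKO 1 and LKO 2. Fpgs was not called without these libraries, with slide as a fixed block or under scaling to the 75th percentile. With normexp background correction Fpgs was called (0.42). In 6 of 12 runs that left out 1 array (Floxed 2, 4, 5 or 6 or LKO 2 or 5) Fpgs was not called, with differences from 0.25 to 0.42.

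Sfxn1 (NM_027324), the carrier that brings serine into mitochondria, where Shmt2 acts, had values of 11.58, 11.79 and 12.06 in Floxed mice and of 11.88, 12.06 and 12.14 in LKO mice. All 6 LKO mice were above the Floxed median. Sfxn1 differed by 0.21 (standard error 0.094; limma adjusted p = 0.579), and its unadjusted limma p was 0.0432. The difference was 0.19 within slide 2 and 0.20 without LKO 1 and LKO 2. Sfxn1 was not called without these libraries or with slide as a fixed block. Under scaling to the 75th percentile (0.21) and with normexp background correction (0.24) Sfxn1 was called. The call was lost in 9 of 12 runs that left out 1 array (all but Floxed 4, Floxed 5 and LKO 3), with differences from 0.16 to 0.26.

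**Figure D4:**
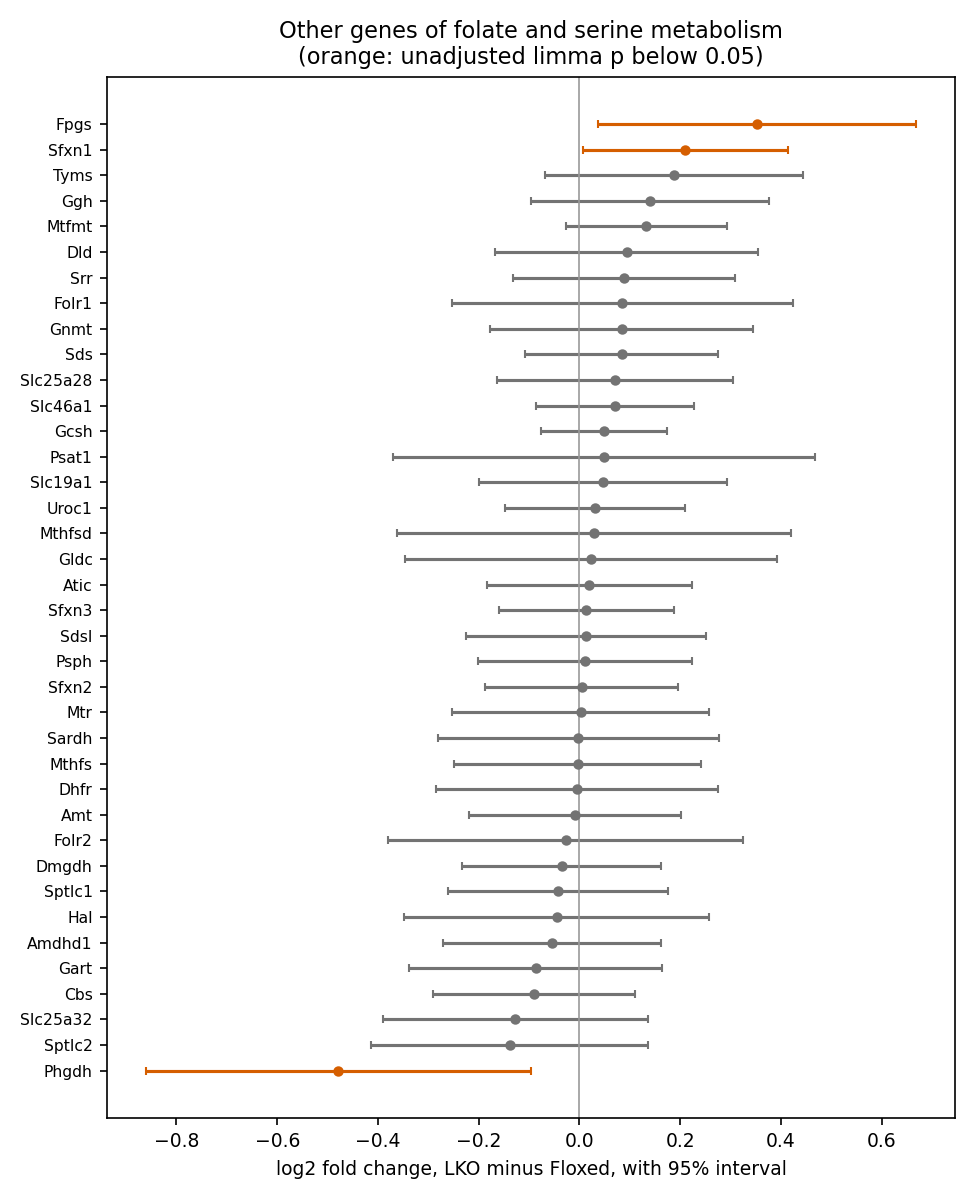
Log2 fold change, LKO minus Floxed (horizontal axis), of 38 of the 39 tested genes of the folate and serine list, with 95% intervals from limma over 6 mice per genotype. Orange marks the 3 genes with an unadjusted limma p below 0.05, which are Fpgs, Sfxn1 and Phgdh, and 24 of the 38 points lie above 0.

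Other genes of the list with comparatively large differences were not called. Tyms, the thymidylate synthase, differed by 0.19 (standard error 0.12; limma adjusted p = 0.791) and was called under scaling to the 75th percentile (0.30). Ggh, which removes the glutamate tail of folates, differed by 0.14, Mtfmt, which formylates the mitochondrial initiator tRNA, by 0.13, and Sptlc2, a subunit of the serine palmitoyltransferase, by -0.14. The enzymes after Phgdh in serine synthesis, Psat1 and Psph, differed by 0.048 (standard error 0.19) and 0.011 (standard error 0.098).

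Markers of other cell types and programs were given beside these values. Of the proliferation list, 3 of 5 genes were tested and 0 called, with a median log2 difference of 0.19, and the log2 of their summed intensity was 8.56 to 9.17 in Floxed and 8.30 to 9.70 in LKO mice. Of the Atf4 targets, 9 of 10 were tested and 1 was called, Asns, the asparagine synthetase, with a log2 difference of -1.18 (standard error 0.54; limma adjusted p = 0.598), while the median of the list was -0.025 and its log2 sum was 15.90 to 16.48 in Floxed and 16.23 to 16.61 in LKO mice. All 7 tested Kupffer cell and macrophage genes had negative differences (median -0.10) and 0 were called. Of the endothelial list, Pecam1 was called (0.70, limma adjusted p = 0.273) among 6 genes, of which 4 had positive and 2 negative differences (median 0.060). Of the pancreas acinar list, Cel was called (0.54, limma adjusted p = 0.273) among 3 tested genes, of which 2 were positive and 1 negative (median 0.16). Cpa1, Pnlip and Prss2 of that list were not well above background on all arrays. The lists for stellate cells, cholangiocytes, lymphocytes and red blood cells had 0 calls, with medians of -0.017, 0.095, -0.074 and -0.32. Krt7, Epcam and Sox9 of the cholangiocytes and Cd3g and Cd79a of the lymphocytes were not well above background on all arrays. The part of these cells and programs in the differences of the folate enzymes was not tested.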

How the data were processed

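Liver RNA of 12 mice was labelled with cyanine 3 and hybridized to single-color Agilent mouse arrays. For each array the authors deposited the scanner software's intensity per spot, corrected for background and not normalized between arrays, with flags. The software version is 10.7.1.1 in the file headers and 9.5.1.1 in the submitters' processing notes. The authors also deposited a table of quantile-normalized intensity values on a linear scale (median of the first column 24.7). Of its values, 99.98% lay within 0.1 log2 of the quantile-normalized values obtained here before outlier spots were removed. The study's methods and the labels name different RNA isolation kits.

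Control spots (1377 per array) were left out. The processed intensity was log2-transformed, quantile-normalized over 12 arrays, cleared of outlier spots and averaged per probe. The study filtered on a detection p-value, and the flag for well above background on all 12 arrays (at least 0.5 of a probe's spots) was used in its place. The brightest probe stood for a gene. Of 28389 probes with a RefSeq accession, 94.3% matched a RefSeq gene table (GRCm38.p6); other probes kept the array's identifier. No gene coordinates are given from the array, which was designed on another build, and promoters come from RefSeq. Genotypes were taken from the sample titles and slides from the array identifiers. They were compared with limma 3.58.1 (lmFit and eBayes, R 4.3.3) over all genes, without covariates; pairs of enzymes with exact permutation tests (scipy 1.17.1, Python 3.11.15). With each slide scanned as a unit, slide was the batch examined. The fitting code was tested on simulated data without slide effects and with changes larger than any difference of the enzymes. That test cannot show how the fit performs with slides unevenly split between genotypes or with small differences.

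The 9 enzymes and all gene lists were chosen with earlier results of these data known. The genes named are the enzymes, Phgdh, the called genes of the pathway list and the 5 largest of its other differences (1 of which is not reported here), the 3 genes most like Shmt1 and Shmt2, and called markers. Psat1 and Psph were added after their values were seen. Alternatives covered normalization, normexp background correction (offset 50), the authors' table, the filter, outlier flags, slide, replicate number, each array left out, thresholds, the methods' t-test and further probes. Leaving out LKO mice 1 and 2 was added after the data had been seen, and it left no slide with both genotypes. The number of arrays limits the precision.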

Additional observations from a re-analysis of the deposited data

Results flagged for a closer look

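In 2 of the 40 groups of 6 values examined, 1 mouse stood apart from the others by more than Dixon's 95% limit for the gap to its neighbor, and 2 are what chance gives at about 1 in 20 groups. Shmt1 was 11.05 on the log2 scale in Floxed mouse 6, while the other 5 Floxed mice lay between 10.45 and 10.65. Aldh1l2 was 3.998 in Floxed mouse 2, while the other 5 lay between 2.98 and 3.32.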

How the results depend on the processing

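Of 165 combinations of an enzyme and an alternative, 140 kept direction and side of the threshold, 5 lost a call, 1 gained one and 19 turned sign. The 5 were Mthfd2 under 75th-percentile scaling (-0.18), normexp (-0.13), slide as a fixed block (-0.18) and without Floxed mouse 5 or LKO mouse 4 (range of the log2 difference with 1 array left out -0.43 to -0.27). Signs turned for Shmt1 with slide as a fixed block (-0.22) and on its other probe (-0.035), for Shmt2 under 75th-percentile scaling (-0.0012) and with 1 array left out (-0.036 to 0.052), for Mthfd2l with slide as a random block (-0.0067), without LKO mice 1 and 2 (-0.078) and with 1 array left out (-0.096 to 0.089), and for Mthfd1l on its other probe (-0.20). Phgdh was not called under 75th-percentile scaling (-0.34) and with slide as a fixed block (-0.055), was -0.19 with normexp (called) and 0.30 on its other probe, and ran from -0.60 to -0.38 with 1 array left out. The called enzymes numbered 0 under 75th-percentile scaling, normexp, slide as a fixed block, the adjusted threshold and a log2 threshold of 1, and 0 to 2 with 1 array left out (2 without Floxed mouse 6). Of the pathway list 1 gene was called with slide as a fixed block, 0 at either stricter threshold and 1 to 4 with 1 array left out. Of all genes, 2791 were called without the filter, 317 with slide as a fixed block, 0 after adjustment (1413 unadjusted), 88 at a log2 difference of at least 1, 2172 without LKO mice 1 and 2 (an alternative chosen after the data had been seen), and 1103 to 1837 with 1 array left out. Among the pairs, slide as a fixed block gave -0.23 (Shmt1 and Shmt2), 0.029 (Mthfd1 and Mthfd1l) and -0.24 (Aldh1l1 and Aldh1l2), 75th-percentile scaling gave -0.12 for the last, and omission of LKO mice 1 and 2 gave 0.056 for Mthfd1 and Mthfd1l. With 1 array left out the pairs ran from 0.038 to 0.16, from -0.20 to 0.19 and from -0.043 to 0.22, and the difference of the compartment medians from 0.0054 to 0.16, and that difference was -0.030 under 75th-percentile scaling. Scaling to the 75th percentile moved the calls over all genes from 832 higher and 581 lower to 1127 and 316. The cause of these changes was not tested. Same-numbered mice of the genotypes did not deviate together (correlations from -0.24 to 0.32), and with the replicate block 1428 genes were called and no enzyme changed its call. Slide as a random block was not run for the pairs and medians.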
